A study of Caenorhabditis elegans with 2 samples.

Results

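MicroRNA genes were examined in chromatin immunoprecipitation sequencing (ChIP-seq) of the tagged bZIP transcription factor ZIP-8 in mixed-stage embryos of Caenorhabditis elegans. Members were all genes of biotype miRNA on the nuclear chromosomes of WBcel235 in Ensembl release 115, which gave 261 of 46890 annotated genes. A peak was linked to a gene when its summit, the position of highest enrichment, lay between 2 kb upstream of the annotated start and the end of the gene. The worms were of strain OP327, which carries unc-119(ed3) III and the integrated insertion wgIs327 with eGFP-tagged zip-8, and the samples were whole embryos of both sexes. There was 1 group of 2 replicates, which the labels call biological without saying whether they came from separate cultures, and the tag was the target of the immunoprecipitation. The labels do not name the promoter that drives the tagged gene, and no untagged strain or input was analysed here. The lists hold no read counts, so the depth of each library is unknown.

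A microRNA is cut from a hairpin transcript by Drosha and Dicer and loaded into an Argonaute protein, which it guides to messenger RNAs through its seed, bases 2 to 8 of the mature strand. MicroRNAs that share a seed form a family and can act on overlapping targets. In C. elegans the mir-35 family is abundant in early embryos and is required for their development, whereas the let-7 family is best known for timing late larval cell fates. bZIP proteins bind DNA as dimers and recognise short, often palindromic sites.

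Of the 261 microRNA genes, 24 had a linked summit in the optimal list, the 2610 nuclear peaks that passed the authors' reproducibility threshold. They are named in the paragraphs on their peaks and formed 16 loci, because hairpins less than 2 kb apart on 1 strand were counted as 1 locus and often shared a peak. The mature strands of the mir-35 family, shown because 6 of its 8 members were linked, carry 1 common seed, here in capitals and 5′ to 3′, from the WBcel235 genome sequence of RefSeq at the Ensembl positions of the mature strands.
mir-35-3p: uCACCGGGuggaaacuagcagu
mir-36-3p: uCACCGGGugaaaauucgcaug
mir-37-3p: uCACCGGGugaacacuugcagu
mir-38-3p: uCACCGGGagaaaaacuggagu
mir-39-3p: uCACCGGGuguaaaucagcuug
mir-40-3p: uCACCGGGuguacaucagcuaa
mir-41-3p: uCACCGGGugaaaaaucaccua
mir-42-3p: uCACCGGGuuaacaucuacaga
Of these, mir-40 and mir-41 had no linked optimal summit.

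The other family with several linked members shares the seed AUGACAC. All 5 of its members were linked, through 2 peaks, 1 for the mir-229, mir-64, mir-65 and mir-66 cluster and 1 for mir-63. The mature strands of 4 members are shown, with the seed on the 5p strand of mir-229, mir-64 and mir-66 and on the 3p strand of mir-63.
mir-229-5p: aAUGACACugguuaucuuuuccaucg
mir-64-5p: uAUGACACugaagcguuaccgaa
mir-66-5p: cAUGACACugauuagggauguga
mir-63-3p: uAUGACACugaagcgaguuggaaa
The let-7 family had no linked optimal summit, and 4 members with its main seed are shown for comparison.
let-7-5p: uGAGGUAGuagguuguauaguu
mir-48-5p: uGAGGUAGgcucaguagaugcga
mir-84-5p: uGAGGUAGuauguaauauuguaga
mir-241-5p: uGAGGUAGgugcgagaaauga

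Full bZIP sites of these kinds were searched on both strands, wholly within 50 bp of a summit: the CRE (cAMP response element) palindrome TGACGTCA with its variant TGACGTAA, the C/EBP palindrome TTGCGCAA, the PAR palindrome TTACGTAA, the composite TGATGCAA and the hybrid TGACGCAA. The 101 bp around the summit of the 5 strongest microRNA peaks and of 4 others are given on the plus strand of WBcel235, with full sites in capitals, because they show which letters lay under each peak.
mir-35 to mir-39, II:11536074-11536174: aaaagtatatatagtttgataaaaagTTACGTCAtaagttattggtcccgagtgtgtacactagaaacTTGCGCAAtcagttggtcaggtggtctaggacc
mir-270, IV:3260366-3260466: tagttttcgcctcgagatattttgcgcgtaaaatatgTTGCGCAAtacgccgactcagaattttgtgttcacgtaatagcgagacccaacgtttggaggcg
mir-2221, X:1390543-1390643: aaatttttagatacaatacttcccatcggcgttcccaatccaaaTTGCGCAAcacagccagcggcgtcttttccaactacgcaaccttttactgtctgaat
mir-359 and mir-785, X:3003563-3003663: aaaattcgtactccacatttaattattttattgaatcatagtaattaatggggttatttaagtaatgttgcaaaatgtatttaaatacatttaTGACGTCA
mir-271, X:3411297-3411397: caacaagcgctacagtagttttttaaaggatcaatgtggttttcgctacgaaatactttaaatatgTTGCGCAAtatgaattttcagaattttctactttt
mir-253, V:5780843-5780943: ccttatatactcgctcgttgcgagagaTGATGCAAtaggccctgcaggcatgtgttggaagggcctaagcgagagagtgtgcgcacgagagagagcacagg
mir-63, X:17598936-17599036: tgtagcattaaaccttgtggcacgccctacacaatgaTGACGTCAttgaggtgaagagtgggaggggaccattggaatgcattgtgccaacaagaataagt
mir-42, II:11887847-11887947: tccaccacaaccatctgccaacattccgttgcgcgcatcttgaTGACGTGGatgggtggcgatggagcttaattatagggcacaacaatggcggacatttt
mir-229 cluster, III:2172150-2172250: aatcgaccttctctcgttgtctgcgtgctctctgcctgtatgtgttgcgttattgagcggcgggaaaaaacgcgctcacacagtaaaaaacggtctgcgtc
The mir-35 window holds TTACGTCA, which is the CRE variant on the other strand, and the C/EBP palindrome. The mir-42 window holds no full site, and its capitals mark TGACGTGG, a match to the pattern described for the stress factor XBP-1 (TGACGTGG or TGACGTGT). The mir-229 window held neither.

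The 24 linked genes were 9.20% of all microRNA genes (95% exact Clopper-Pearson interval 5.98 to 13.4%, counting error only), against 8.10% of all annotated genes with the same rule. The hairpins are short, with a median length of 95 bp, so a window that runs to the end of a gene is wider for most other genes. When windows were ended 100 bp past the start, the same 24 microRNA genes were linked, against 5.45% of all genes and 5.74% of protein-coding genes. Counted as loci, 16 of 222 were linked, or 7.21%, and no locus share was computed for all genes. The share of microRNA genes was thus close to that of all genes under the same rule and higher than that with the shortened windows. However, linked genes that share a peak are not independent of each other, which the interval ignores. All annotated genes also include 15363 piRNA genes, whose lower share, given next, enters the background. Among other small RNA genes, with windows to the gene end, 40 of 346 snoRNA genes (11.6%), 11 of 129 snRNA genes (8.53%), 38 of 612 tRNA genes (6.21%) and 634 of 15363 piRNA genes (4.13%) were linked.

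In the longer lists, which reach lower signals, more genes had a summit. The pooled list, from which the optimal peaks are the highest 2610 of 29972, linked 153 microRNA genes (58.6%), against 57.6% of all genes. The list of replicate 1 linked 115 (44.1%), against 49.0% of all genes. The list of replicate 2 linked 87 (33.3%), against 31.0% of all genes. In 87 microRNA genes no list had a summit in the window, and 37 had a summit in the pooled list and in both replicates without an optimal one. For all genes these combinations of lists were not counted, so neither number has a background. By chromosome, optimal links were found for 6 of 49 microRNA genes on II, 6 of 27 on III, 5 of 74 on X, 4 of 50 on IV, 1 of 28 on V and 2 of 33 on I. On II mir-35 to mir-39 shared 1 peak, and on III mir-229, mir-64, mir-65 and mir-66 shared 1. The share of all genes on each chromosome was not computed, so these counts have no background.

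**Figure D1:**
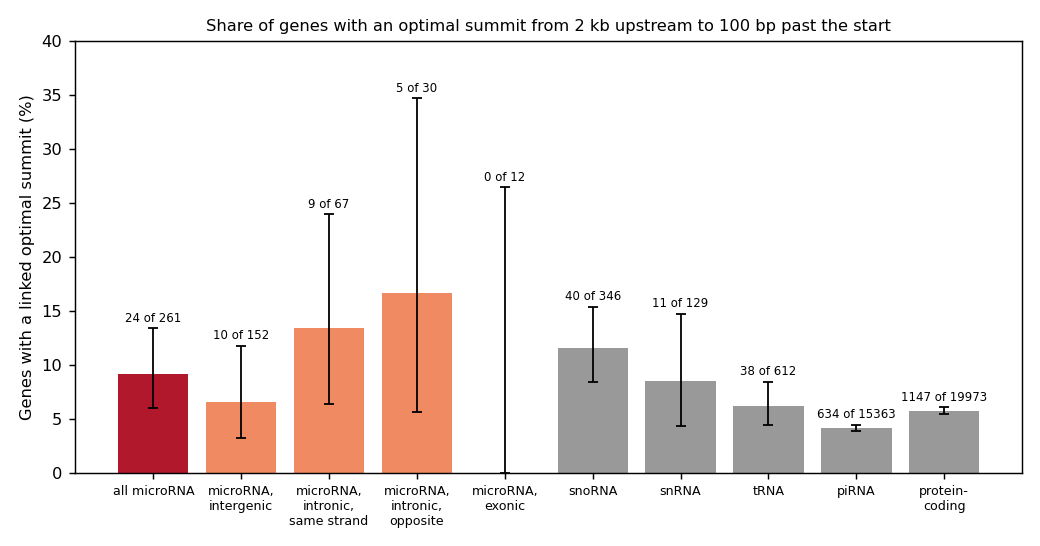
Share of genes with an optimal summit between 2 kb upstream and 100 bp past the gene start, for microRNA genes, microRNA genes by position relative to protein-coding genes, and other gene classes. Bars are shares in percent, whiskers 95% exact binomial intervals that cover counting error only, and the counts stand above; all microRNA genes (24 of 261) lie between snoRNA genes (40 of 346) and protein-coding genes (1147 of 19973).

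The peak upstream of the mir-35 cluster was the highest at any microRNA gene. This cluster of 7 hairpins, mir-35 to mir-41, lies on the plus strand of chromosome II, beginning at II:11537608, within an intron of Y62F5A.9 on the opposite strand. Its optimal summit, at II:11536124, had a signal of 249 and ranked 24 of 2610. The signal is the value the authors deposited for the peak, on a scale no label names. The same peak had signal 177 and rank 31 of 22773 in replicate 1, and signal 67.2 and rank 29 of 12190 in replicate 2. The replicates' summits lay 5 and 10 bp from the optimal one. Signals of different lists were not put on 1 scale, so replicates are compared by rank, and by rank this peak stood near the top of each list.

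The mir-35 summit lay 1484 bp upstream of mir-35, 1589 bp upstream of mir-36, 1709 bp upstream of mir-37, 1809 bp upstream of mir-38 and 1965 bp upstream of mir-39. It lay 2060 bp from mir-40 and 2184 bp from mir-41, just beyond the 2 kb limit, so the limit alone separated mir-39 from mir-40. With a 1 kb limit none of the mir-35 family was linked, and with 5 kb all 8 were. The nearest start of a protein-coding gene, that of Y62F5A.12, was 1645 bp away. The peak thus lay in no protein-coding promoter as defined here (1 kb upstream to 200 bp past a start). That reach is shorter than the 2 kb used for hairpins, and mir-37, mir-38 and mir-39 lay farther from the summit than this coding start. Its CRE variant lay to the left and its C/EBP palindrome to the right of the summit. Of the 2610 optimal peaks 7 held a CRE-type site together with the C/EBP palindrome, with signals between 53.6 and 268, and this was the next to highest.

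Weaker peaks lay closer to the mir-35 hairpins. The pooled list had summits of signal 14.9 at 104 bp upstream and 11.6 at 100 bp downstream of the start of mir-35. These ranked 3659 and 4672 of 29972. Replicate 2 had a further peak of signal 24.2 (rank 348) at 1842 bp upstream of mir-35. The pooled list had 8.72 at 1943 bp upstream, and the peak of replicate 1 nearest to that place was the main one.

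The eighth member of the family, mir-42, lies with mir-43 and mir-44 in an intergenic cluster at II:11889811. Its optimal summit, 1914 bp upstream, had signal 33.0 and rank 1589, with signal 26.2 and rank 285 in replicate 2. The overlapping replicate 1 peak had signal 14.5 and rank 2512, and its summit lay 167 bp away, outside the window. Hence mir-42 was linked without replicate 1 and not linked without replicate 2. A further optimal peak, with signal 29.4 and rank 1819, lay 1004 bp downstream of the start of mir-42, past the end of mir-44. The TGACGTGG of the mir-42 window ended at the summit, and that pattern was found at 71 of 2593 other optimal peaks (2.74%) and in 23 of 2610 windows of the same length 250 bp to the side of an optimal summit (0.881%).

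**Figure D2:**
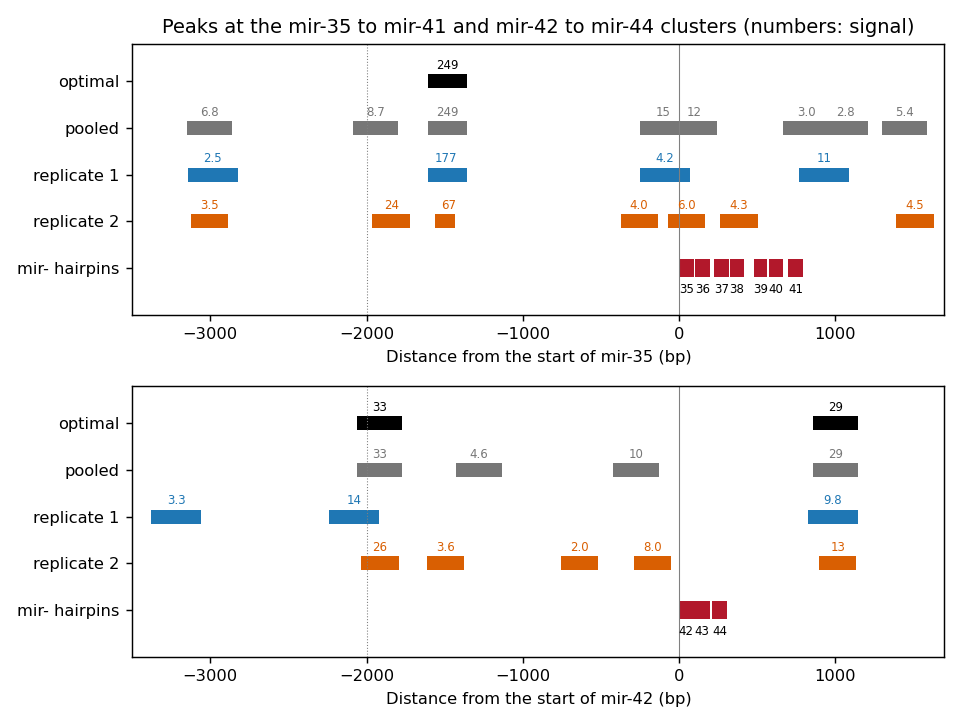
Peaks of the 4 lists at the mir-35 to mir-41 cluster (top) and the mir-42 to mir-44 cluster (bottom), by distance in bp from the start of the first hairpin. Bars are called peaks, numbers above them the deposited signal, red boxes the hairpins and the dotted line the 2 kb limit; the 249 peak is matched by peaks of both replicates, and the 33 peak at mir-42 by an offset replicate 1 peak.

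The other 15 linked peaks ranked from 155 to 2492. The highest, at mir-270, had its summit at IV:3260416 in an intron of T26C12.1, 1867 bp upstream of the hairpin, with signal 118. It ranked 155 in the optimal list, 160 in replicate 1 and 192 in replicate 2. It holds the C/EBP palindrome, centred 9.50 bp left of the summit. The hairpin, at IV:3258455-3258549 on the minus strand, lies outside protein-coding genes. The start of T26C12.1, 1506 bp from the summit, was nearer to the summit than the hairpin.

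The intergenic mir-2221, at X:1390847-1390964 on the plus strand, was the only microRNA gene with 2 linked optimal peaks. The nearer, at X:1390593 and 254 bp upstream, had signal 68.3 (rank 481), with 54.2 (rank 360) in replicate 1 and 11.3 (rank 1174) in replicate 2. The farther, at X:1389336 and 1511 bp upstream, had signal 26.2 (rank 2074), with 14.6 (rank 2489) in replicate 1 and 7.96 (rank 2030) in replicate 2. Both hold the C/EBP palindrome, and the nearest protein-coding start, of F56C3.1, was 3276 bp from the first and 2019 bp from the other.

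The peak shared by mir-359 and mir-785 on X, at X:3003613, had signal 53.4 (rank 781), 678 bp upstream of the nearer hairpin. It also lay 190 bp from the start of Y41G9A.6, in the promoter of that gene, and ranked 883 in replicate 1 and 3467 in replicate 2. Close in signal, mir-271 had 52.8 (rank 800) at X:3411347 in an intron of unc-78, the worm AIP1 that acts with cofilin on actin filaments. That summit lay 657 bp upstream of the hairpin and 267 bp from the start of unc-78, downstream of its promoter window, and ranked 1134 in replicate 1 and 1043 in replicate 2. In mir-253 the peak of signal 43.9 (rank 1062) at V:5780893 fell on an exon and the promoter of F44E7.5, the gene in whose intron the hairpin lies. It ranked 1443 in replicate 1 and 489 in replicate 2, and it was the microRNA peak with the composite site.

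Of the intronic microRNAs, mir-8193 in the neuropeptide receptor gene dmsr-2 had signal 47.7 (rank 934) at I:2537128, 1483 bp upstream and with the CRE variant. It ranked 656 in replicate 1 and 2031 in replicate 2. In an intron of W06F12.2, mir-4814 had 38.5 (rank 1297), 1018 bp upstream, with ranks 2060 and 1243 in replicates 1 and 2 and the C/EBP palindrome. The peak 1885 bp upstream of mir-5546, with signal 37.9 (rank 1324), lay in an intron of arx-1, which codes for a subunit of the actin-nucleating Arp2/3 complex. It was 4 bp from the start of Y71F9AL.6 and ranked 2845 in replicate 1 and 441 in replicate 2, and it held no full site. At mir-8201 the summit, with signal 25.1 (rank 2184), was 2 bp from the start of hil-2, a linker histone H1 gene, 337 bp upstream of the hairpin in its intron. It ranked 1990 in replicate 1 and 6305 in replicate 2.

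The intergenic mir-4934 was linked to a peak of signal 37.1 (rank 1367) in an exon of mtr-4, which codes for an RNA helicase of the nuclear exosome. This peak was 1840 bp upstream of the hairpin and nearer, at 1567 bp, to the start of mtr-4. It ranked 1540 in replicate 1 and 7876 in replicate 2. At mir-356.2, a peak of 31.3 (rank 1684) lay in the promoters of cuc-1, a copper chaperone gene, and snr-5, a gene of the spliceosomal Sm proteins. Its ranks were 2896 in replicate 1 and 2197 in replicate 2. In both cases the distance to the hairpin exceeded 1 kb.

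At the mir-229, mir-64, mir-65 and mir-66 cluster the peak had signal 27.7 (rank 1943). The summit at III:2172200 lay 252 bp upstream of mir-229 in an intron of gcn-1, whose product takes part in the control of translation under stress, on the same strand as the hairpins. The nearest protein-coding start was 20255 bp away. Its rank was 2190 in replicate 1, with signal 16.5, and 720 in replicate 2, with signal 15.5. The mir-63 peak, at X:17598986 and 118 bp upstream of the hairpin, had signal 23.9 (rank 2303). It had the closest summit to a hairpin start of the 17 peaks and held the CRE palindrome. Replicate 1 had signal 24.0 (rank 1397) there, and replicate 2 had no overlapping peak.

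The lowest of the linked peaks, at mir-52, had signal 22.4 (rank 2492) at IV:14033617, 391 bp upstream of the hairpin. Replicates 1 and 2 had overlapping peaks of signal 11.8 (rank 3017) and 10.5 (rank 1330). In worms mir-52 belongs to the mir-51 family, whose members act redundantly in embryonic development, and its peak held no full site. The optimal list ended at a signal of 21.4, so mir-52 lay just inside it. The first microRNA genes outside were mir-62, in an intron of ugt-50, with a pooled signal of 21.2 (rank 2640), and mir-241 with 20.3 (rank 2753).

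**Figure D3:**
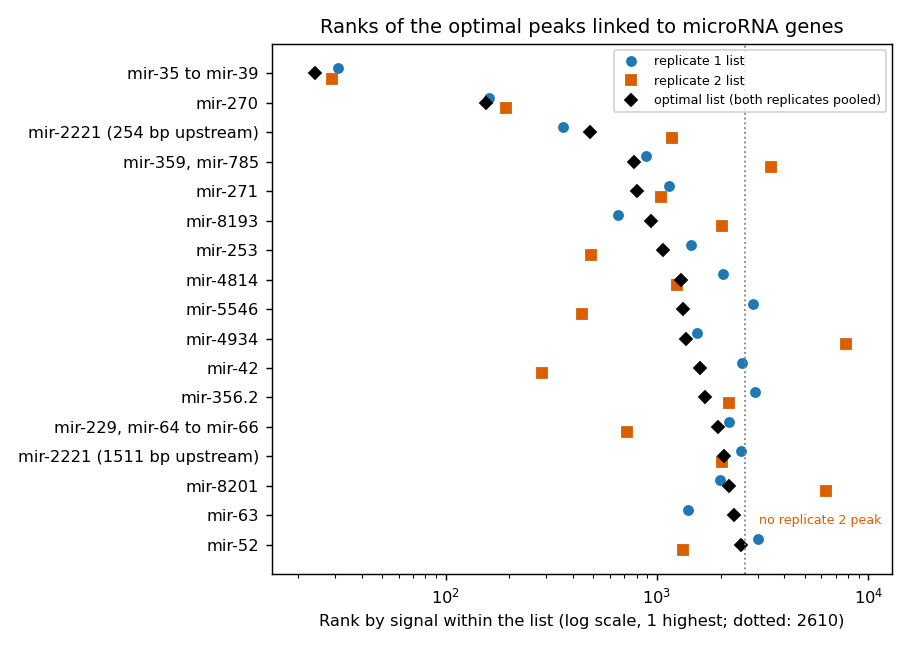
Rank by signal of each of the 17 optimal peaks linked to microRNA genes, within the optimal list and within each replicate's own list (log axis, rank 1 highest, dotted line at 2610). The mir-35 and mir-270 peaks rank highest of the 17 in the optimal list and in both replicates' lists, and mir-63 has no replicate 2 peak.

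The 17 linked peaks were set beside the other optimal peaks as counts and medians, with no test. Their median signal was 37.9 (quartiles 27.7 and 52.8), against 38.4 (27.5 and 58.9) for the 2593 others. Overlapping peaks in both replicates were found for 16 of 17 (94.1%), against 80.9% of the others, and the exception was mir-63. The optimal list was made from both replicates' reads together, so this overlap is not independent support. When the 2610 highest peaks of each replicate were taken, 10 of 17 (58.8%) overlapped both sets, against 50.1% of the others. In 5 of 17 (29.4%) the summit lay in a protein-coding promoter, against 31.1%. The other 12 lay in none, among them those at mir-35, mir-270, mir-2221 (both), mir-42, mir-63 and mir-52. With promoters of 2 kb, the reach used for hairpins, 10 of 17 lay in none.

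A full bZIP site was found at 13 of the 17 peaks (76.5%, exact interval 50.1 to 93.2%), against 2041 of the 2593 others (78.7%) and 65 of 2610 windows to the side (2.49%). The C/EBP palindrome was present at 7 (41.2%), those of mir-35, mir-270, mir-2221 (both), mir-271, mir-4814 and mir-4934, against 420 others (16.2%) and 0.307% to the side. The CRE palindrome was present at 4 (23.5%), those of mir-359 with mir-785, mir-356.2, mir-8201 and mir-63, against 1027 others (39.6%) and 0.958% to the side. No linked peak held the PAR palindrome or the hybrid, which were present at 3.47% and 9.53% of the others and at 0.153% and 0.383% to the side. The CRE variant was found at 11.8% of both sets and at 0.268% to the side, and the composite at 5.88% of the linked peaks, 1.81% of the others and 0.421% to the side. These site kinds were compared as counts only, over 17 peaks, and the kinds were defined with earlier results of these data known. Among the highest 2610 peaks of replicate 2 alone the share of linked peaks with a full site was 12 of 26 (46.2%), against 49.0% of the other peaks, so both shares were lower there. In replicate 1 alone it was 12 of 15 (80.0%), against 80.2%.

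**Figure D4:**
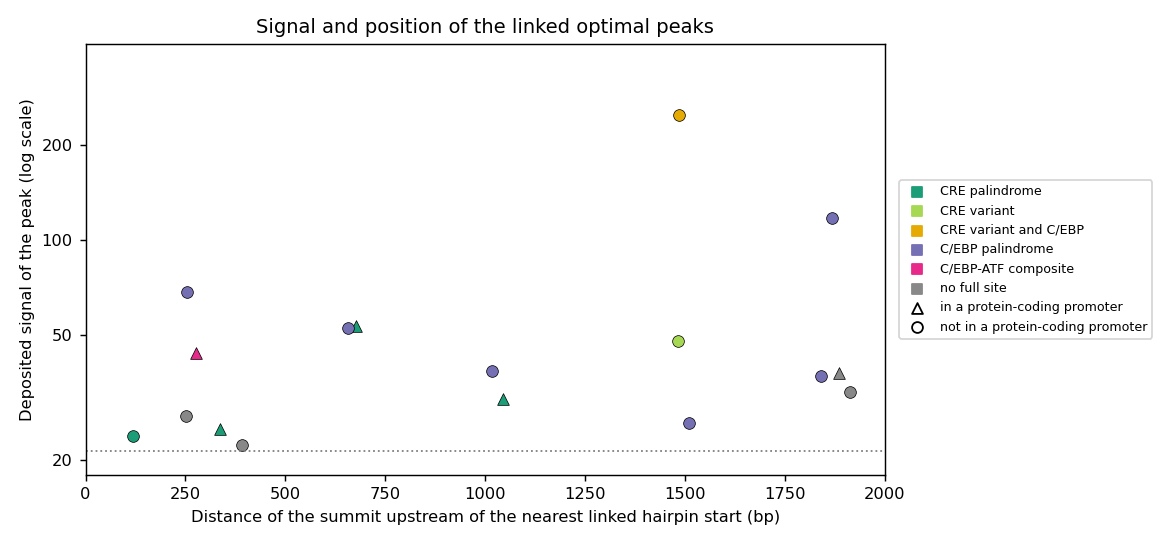
Deposited signal (log axis) of the 17 linked optimal peaks against the distance in bp of their summit upstream of the nearest linked hairpin start, coloured by full bZIP site, with triangles for summits in a protein-coding promoter and the dotted line at the lowest optimal signal of 21.4. The 2 highest peaks, at 249 and 118, lie 1484 and 1867 bp from the hairpin and outside such promoters.

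Linked summits were spread over the 2 kb window. Of 25 links between a gene and a peak, 6 (24.0%) lay within 500 bp of the start, 5 at 501 to 1000 bp, 5 at 1001 to 1500 bp and 9 (36.0%) at 1501 to 2000 bp. Among the upstream links of protein-coding genes 31.3% lay in the nearest of these bins and 22.1% in the farthest. Several of the microRNA links are 1 peak counted for neighbouring hairpins. For most microRNA genes the annotated gene is about the hairpin (median length 95 bp). The let-7 gene spans 1732 bp and mir-8199 778 bp, so their distances are from the gene start and not the hairpin. The annotation used does not mark starts of primary transcripts as such, so the distance to the transcript start is unknown.

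By position, 10 of 152 intergenic microRNA genes were linked (6.58%), 9 of 67 in an intron on the same strand (13.4%), 5 of 30 in an intron on the opposite strand (16.7%) and 0 of 12 overlapping an exon. Counted as loci these were 9 of 127, 6 of 63, 1 of 21 and 0 of 12, and all 5 of the opposite-strand genes were mir-35 to mir-39. The 10 intergenic genes were mir-42, mir-356.2, mir-270, mir-4934, mir-52, mir-2221, mir-359, mir-785, mir-271 and mir-63. The 9 intronic genes on the same strand were mir-8193, mir-5546, mir-229, mir-64, mir-65, mir-66, mir-4814, mir-8201 and mir-253. At mir-253 and mir-8201 the summit lay in the host gene's own promoter. When hosts of any biotype counted, 116 genes were intergenic with 7 linked (6.03%). The exonic class then held 50 genes with 8 linked (16.0%), so its share depended on which hosts counted. Those linked were mir-35, mir-36, mir-37, mir-39, mir-42, mir-52, mir-253 and mir-271.

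The mir-35 and let-7 families had different counts in the optimal list. There 6 of 8 mir-35 family members were linked, through 2 peaks, against 0 of 7 let-7 family members. Over all microRNA genes the share was 9.20%, and over all genes 8.10%. With shares this low, 0 of 7 does not set the let-7 family apart from other genes. All 8 mir-35 members had a pooled summit, with 7 in replicate 1 and 8 in replicate 2. The let-7 family had 6 of 7 in the pooled list, 3 in replicate 1 and 3 in replicate 2. These counts rest on few peaks and were chosen for description, with no test.

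Within the let-7 family mir-241 came closest to the optimal list. Its summit at V:14367860, 1577 bp upstream, had a pooled signal of 20.3 (rank 2753), with 11.1 (rank 3154) in replicate 1 and 3.28 (rank 7088) in replicate 2, and held the CRE palindrome. Its neighbour mir-48, which acts with mir-241 and mir-84 on hbl-1 in the larva, had 5.72 at 1971 bp upstream. The founding let-7 is annotated as a longer gene, X:14743590-14745321 on the minus strand, with its 5p mature strand at X:14744234-14744255. Its window and distances thus run from the gene start and not from the hairpin. The let-7 gene had 12.8 (rank 4231) at 1933 bp upstream, with 7.20 in replicate 1. The highest summit of replicate 2 in the window, with 3.01, lay elsewhere, 183 bp upstream. The others were lower: mir-795 had 11.6, mir-793 had 4.14 and mir-84 had 3.34, and mir-794 had no summit in any list. With a 5 kb limit mir-84 alone of the family was linked, to an optimal peak of signal 30.7 at 4912 bp upstream.

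**Figure D5:**
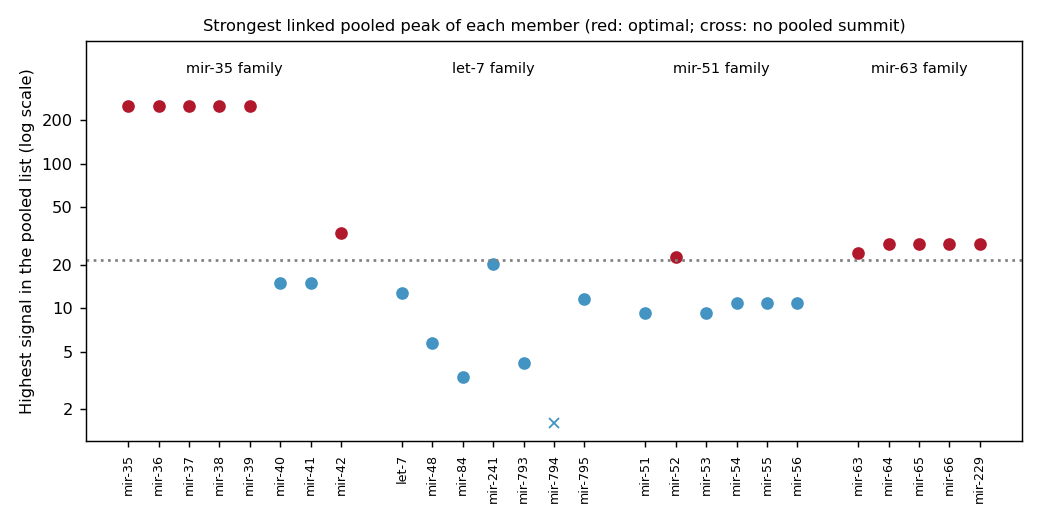
Highest signal in the pooled list (log axis) among summits linked to each member of the mir-35, let-7, mir-51 and mir-63 (seed AUGACAC) families. Red points were also optimal, the dotted line is the lowest optimal signal of 21.4 and the cross marks mir-794, with no pooled summit; neighbouring points of equal height are 1 shared peak.

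Outside these 2 families, the family lists named 9 further seed families with 37 microRNA genes. Of these genes 6 were linked: mir-52 and the 5 genes with the seed AUGACAC. None was linked in the mir-58 family (0 of 8), the lin-4 family (0 of 2), or the mir-44, mir-2, mir-72, mir-238 and mir-75 families. The count was 11 in the highest peaks of replicate 2 alone and 5 in those of replicate 1, so it moved with the replicate used. Replicate 2 alone added mir-54, mir-55 and mir-56 of the mir-51 family, through a shared peak of signal 7.23 (rank 2343), and mir-58.1 with 7.65 (rank 2143). It also added mir-43 and mir-44 with 8.01 (rank 2011). The family lists do not follow shared seeds in every case. The linked mir-785, in none of them, has the seed AAGUGAA on its 3p strand, as mir-86 has on its 5p strand. In the mir-58 family, mir-2209.3 lacks the seed GAGAUCA of mir-80.

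Of 8 well-known microRNAs looked up whatever their values, none had an optimal summit within the window. The heterochronic founder lin-4 had a pooled signal of 4.40, and lsy-6, which sets left-right asymmetry of taste neurons, had no summit in any list. The muscle microRNA mir-1 had a pooled summit of rank 4535 at 57 bp downstream of its start, and mir-71, which affects lifespan, had 5.74. The nervous-system microRNA mir-124 had 2.46, mir-235 had 5.58 and mir-228 had 2.70. A microRNA best known in mammals as a target of p53, mir-34, had no pooled summit and 2.89 in replicate 2. Within 5 kb, optimal peaks of signal 163 (rank 78), 60.5 (rank 613) and 43.5 (rank 1077) lay 3913 bp upstream of mir-71, 2013 bp upstream of mir-228 and 4332 bp upstream of mir-1. At mir-228 the peak thus lay 13 bp outside the limit, and replicate 2 had a summit of 19.4 (rank 520) inside it, at 1994 bp.

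Of the genes with summits in the pooled list and both replicates but not the optimal list, the 8 with the highest pooled signal were mir-62, mir-241, mir-5552, mir-90, mir-87, mir-40, mir-41 and mir-5593.1. In order their pooled signals were 21.2, 20.3, 19.8, 18.4, 16.9, 14.9, 14.9 and 13.8. Of these, mir-241, mir-5552 and mir-5593.1 held the CRE palindrome and mir-62 and mir-87 the hybrid, and mir-90, mir-40 and mir-41 held no full site. In the mir-87 window each replicate had a summit among its highest 2610, with signals 15.5 and 9.49 in replicates 1 and 2. These lay 1741 and 1902 bp upstream and the pooled summit 1784 bp upstream, and whether they are 1 peak was not checked.

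The highest peaks of the replicates linked partly different microRNA genes. The highest 2610 peaks of replicate 1 linked 22 microRNA genes (8.43%), against 8.18% of all genes, and those of replicate 2 linked 33 (12.6%), against 8.10% of all genes. Counted as loci, because neighbouring hairpins share peaks, these were 14 of 222 (6.31%) in replicate 1 and 22 of 222 (9.91%) in replicate 2. Both sets shared 16 genes in 9 loci: mir-35 to mir-39, mir-229, mir-64, mir-65, mir-66, mir-270, mir-271, mir-253, mir-2221, mir-4814, mir-8193 and mir-87. Of these, 15 were also optimal, the exception being mir-87. Another 6 genes in 5 loci were in replicate 1 alone, and 17 in 13 loci were in replicate 2 alone. This split was not computed for all genes, so it has no background. Of the 24 optimal genes, mir-8201, mir-4934, mir-359, mir-785 and mir-63 were not linked without replicate 1, and mir-5546, mir-42, mir-356.2 and mir-52 were not linked without replicate 2. In the complete lists 22 of the 24 had a summit in the window in both replicates, mir-42 and mir-63 being the exceptions.

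Among 25 protein-coding genes of the microRNA pathway, 6 had an optimal summit between 2 kb upstream and the gene end, against 11.6% of all protein-coding genes. These windows grow with gene length, and the summits at ain-2, alg-1 and daf-12 lay 331, 6524 and 3702 bp past the start. Windows ended 100 bp past the start would not link these genes, and with such windows 5.74% of all protein-coding genes were linked. Of 16 genes of biogenesis and silencing, 4 were linked. The summit at ain-2, a GW182-type partner of Argonaute, had signal 44.6, 331 bp into the gene, and the one at nhl-2, a TRIM-NHL cofactor of silencing, had 33.7 at 668 bp upstream. At alg-5, a germline Argonaute, the signal was 30.0 at 887 bp upstream, and at alg-1, the main microRNA Argonaute, it was 25.5 in an exon. No list had a summit at drsh-1, the Drosha gene, or ebax-1, and dcr-1 (Dicer), alg-2, lin-28 and pash-1 had pooled signals of 11.2, 8.44, 7.67 and 3.15.

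Of 11 known microRNA targets, 3 were linked, nhl-2 being on both lists. The BH3-only cell death gene egl-1, a target of the mir-35 family, had the highest signal of the pathway, 74.7 (rank 399) at V:14433739 and 1380 bp upstream, with 55.1 (rank 350) in replicate 1 and 23.0 (rank 378) in replicate 2. It holds the PAR palindrome. The nuclear receptor gene daf-12, a let-7 target, had 23.7 (rank 2325) in an intron. The lin-4 target lin-14 had a pooled signal of 21.4 (rank 2616), just below the optimal list, and the let-7 targets lin-41 and hbl-1 had 4.53 and 3.36. In all, 23 of the 25 had a pooled summit, against 68.2% of all protein-coding genes with the same windows, which grow with gene length.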

How the data were processed

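ChIP-seq of ZIP-8::eGFP embryos was analysed from 4 deposited peak lists on ce11, which has the sequence of WBcel235: 1 per replicate, 1 pooled and 1 optimal after a reproducibility filter. The signal (column 7) and the −log10 q-value are the authors' deposited values, whose units no header gives. For the aligner, the peak caller, its control and the threshold, no name was given in the sources used here. The lists on the older build were not used, and 0 columns of other samples were present. The optimal peaks are the 2610 highest of the pooled list, which was checked. Read counts, and so depth, are unknown, and the precision of shares is limited by the number of genes and peaks.

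Summits were linked to 261 microRNA genes in a window from 2 kb upstream to the gene end, with Python 3.11.15, numpy 2.4.6, pandas 2.3.3, scipy 1.17.1 and matplotlib 3.10.9. All 261 matched a RefSeq symbol. Exact binomial intervals cover counting error only, and no test between groups was possible with 1 group. Leaving out a replicate means the 2610 highest peaks of the other replicate alone. Alternatives were windows of 1 and 5 kb, the upper 1305 optimal peaks, any overlap, loci within 10 kb, hosts of any biotype, sites within 100 bp and promoters of 2 kb. Linking and counting were tested on simulated data.

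Named were the members of the mir-35 and let-7 families, every gene with an optimal link, the 8 highest below the optimal list, linked pathway genes and 8 well-known microRNAs. Genes described from the lists of a single replicate or the 5 kb window were chosen after their values were seen. The members, gene lists and site kinds were chosen with earlier results of these data known. In the family lists 1 name, mir-1834, matched no gene.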

Additional observations from a re-analysis of the deposited data

How the results depend on the processing

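The count of microRNA genes with an optimal link was 11 with a 1 kb window (4.21%, against 5.74% of all genes), 43 with 5 kb (16.5%, against 14.4%) and 13 with the upper 1305 peaks (4.98%, against 4.25%), in place of 24. With windows ended 100 bp past the start, the 1 kb share of all genes was 2.99%. Leaving out a replicate gave 22 to 33. In single replicates, windows of 1 and 5 kb gave 74 and 187 genes in replicate 1 in place of 115. A 5 kb window gave 138 in replicate 2 in place of 87. The shares of all genes at these settings were not computed, so the counts have no background. These windows of the replicate lists, and the alternatives for families and pathway genes, were added after seeing the data. Of the 17 peaks, 10 overlapped the highest peaks of both replicates in place of 16. The median signal was 5.41 over the 203 linked pooled peaks. The share with a full site ranged from 46.2 to 80.0% over the leave-one-out lists. With a 1 kb window 0 of the mir-35 family were linked, and with 5 kb 1 of the let-7 family was. The further seed families had 0 linked in the upper peaks, and 5 to 11 without a replicate. The cause of these moves was not tested. The intergenic share was 3.29% with a 1 kb window, in place of 6.58%. With hosts of any biotype, 1 of 24 opposite-strand genes was linked (4.17%). Without a replicate, intergenic shares were 4.61 to 7.89% and intronic shares 14.9 to 17.9%. The mir-35 family counts were then 5 to 6, let-7 counts 0 and pathway counts 5 to 9. No share of all protein-coding genes was computed beside these pathway counts. No paired analysis was possible because there is 1 group. With depth unknown, a missing peak does not show that ZIP-8 was absent there.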
